A study of Homo sapiens with 4 samples.

Results

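Col1a2, Efemp1, Igfbp3, Gas6 and Sepp1 encode 5 proteins that cells release into the extracellular space. They were taken by their symbols from the mouse gene tables of 4 xenograft tumours, where they are 5 of 23698 loci. Each symbol matched 1 locus with the status OK in all 4 libraries, so all 5 are described throughout. They were chosen by their FPKM values in these same 4 libraries. The levels and differences are therefore a description, and no count of these genes is read as evidence against a background.

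The tumours grew from MDA-MB-231 cells, an established human line from a triple-negative breast carcinoma, injected under the skin of Balb/c nude mice, which lack a thymus and with it most T cells but keep other host cells. The 4 groups were caspase-3 efficient untreated, caspase-3 efficient with docetaxel, caspase-3 inhibited untreated and caspase-3 inhibited with docetaxel, with 1 library each. Inhibited tumours came from cells that had been exposed in culture to Z-DEVD-FMK, which blocks caspase-3. How long that inhibition lasted in the animals is not given in the labels. Docetaxel, a taxane that stabilises microtubules, was given at 15 mg/kg to tumours of 12 mm². The labels give no animal age, number of tumours per library or time of collection. With no replicates, no p-value is given, and the deposited bounds on each value do not cover differences between animals. In bulk tissue, fewer cells of a type and less RNA per cell cannot be told apart.

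Type I collagen, the main fibre of connective tissue, is assembled by fibroblasts from alpha 1 and alpha 2 chains, and Col1a2 encodes the alpha 2 chain. Efemp1 encodes fibulin-3, a glycoprotein of the extracellular matrix and of basement membranes. Igfbp3 encodes a carrier that binds insulin-like growth factors and limits their access to the receptor. Gas6 encodes a vitamin K dependent ligand of the receptor kinases Tyro3, Axl and Mertk, which act in survival signalling and in the clearance of dying cells. Sepp1 encodes selenoprotein P, a secreted selenium carrier made largely by liver and also by other tissues. In a tumour such proteins come from stromal cells, among others, and they act on tumour and host cells alike.

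All 5 loci lay in regions where the tables list values for many neighbours. Col1a2 (mm9 chromosome 6, 4455697 to 4491543) had 12 of its 20 nearest loci above 0 in at least 3 libraries. The count was 11 of 20 for Efemp1 (chromosome 11, 28753205 to 28826743), 6 of 20 for Igfbp3 (chromosome 11, 7106096 to 7113926), 10 of 20 for Gas6 (chromosome 8, 13465374 to 13494535) and 4 of 10 for Sepp1 (chromosome 15, 3220767 to 3230508). Sepp1 was the first annotated locus of its chromosome, so it had neighbours on 1 side only. Over all loci the median was 5%, and 6.73% of all loci were above 0 in at least 3 libraries. No other annotated locus overlapped any of the 5 genes, and these spans include introns.

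The stromal label could be checked only in part. Of 20 fibroblast markers, 16 were listed at 0 in all 4 libraries, among them Col3a1, Dcn, Pdgfra and Fap. The 2 measured markers, with at least 1 FPKM in a library, were Col1a2 itself and Mfap5, a microfibril protein at 0 to 1.85 FPKM. FPKM is the number of fragments per kilobase of transcript, scaled to the mapped fragments of the library, so it compares genes per length. Col1a1, the partner chain of Col1a2, was listed at 0 in 3 libraries and at 0.334 FPKM in the docetaxel efficient library. It lies at 94797584 to 94813170 on chromosome 11, where 5% of its nearest loci were above 0. A listed 0 is therefore not read as absence, and the 5 genes are called secreted-protein genes below. None of 10 macrophage markers was measured, and 8 of them were listed at 0 in all 4 libraries. The labels record no step that sorted human tumour reads from mouse host reads, so human fragments similar enough to align to mouse sequence may be counted.

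Relative depth, from the ratio at which low values recur between libraries, was 1.32 in the docetaxel efficient, 0.883 in the untreated inhibited and 0.669 in the docetaxel inhibited library, with the untreated efficient library at 1. The deposited bounds, taken as 95% intervals, were not always symmetric. Their mean distance from the value, over the lower and upper side, was 6.01% to 8.87% of it for Col1a2 and 7.37% to 14.9% for Sepp1. Igfbp3 had 20.7% to 26.9%, Gas6 25% to 38.1%, and Efemp1 26.0% to 64.3%.

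Col1a2 was among the highest listed values of every library. It stood at 369 FPKM (deposited interval 335 to 401) in the untreated efficient library, 515 (470 to 532) in the docetaxel efficient library, and, for inhibited tumours, 371 (337 to 401) untreated and 579 (528 to 624) with docetaxel. Both docetaxel libraries were above both untreated ones with no overlap of intervals, and within each treatment the efficient and inhibited intervals overlapped. Its rank by FPKM was 5 of 2248 loci above 0 with status OK, 6 of 2771, 5 of 1995 and 3 of 1837 in the same order. Since most loci are listed at 0 in these tables, the ranks hold among the listed loci only and say nothing of the tumour's mouse RNA as a whole. The highest value was 1.57 times the lowest, the smallest such range of the 5 genes.

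Sepp1 reached the highest single value of the group. It was at 401 FPKM (356 to 446) untreated and 816 (756 to 876) with docetaxel in efficient tumours, and at 255 (217 to 292) and 363 (312 to 414) in inhibited tumours. The docetaxel efficient library stood above the other 3, the untreated inhibited library stood below the other 3, and the remaining pair overlapped. Sepp1 ranked 3rd, 4th, 6th and 5th among loci above 0, and its values spanned 3.21-fold.

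Igfbp3 was nearly level in 3 libraries and high in the fourth. It was at 69.4 FPKM (52.2 to 85.7) and 66.5 (50.0 to 82.9) in efficient tumours without and with docetaxel, and at 63.0 (45.8 to 79.7) in untreated inhibited tumours. In the docetaxel inhibited library it was at 168 (132 to 202), above the intervals of the other 3, which overlapped one another.

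Efemp1 was high in a different library. It was at 27.2 FPKM (16.6 to 37.2) untreated and 71.6 (51.9 to 89.1) with docetaxel in efficient tumours, and at 18.3 (9.88 to 27.5) and 11.4 (4.40 to 19.1) in inhibited tumours. The docetaxel efficient library lay above the other 3, while each other neighbour in the order of levels overlapped the next. Its 6.28-fold span was the widest of the 5 genes.

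Gas6 was at 23.3 FPKM (14.6 to 31.5) untreated and 48.2 (35.6 to 59.7) with docetaxel in efficient tumours, and at 21.5 (12.9 to 29.3) and 31.2 (19.6 to 42.6) in inhibited tumours. The docetaxel efficient library was the highest and cleared both untreated intervals, but it overlapped the docetaxel inhibited library.

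**Figure D1:**
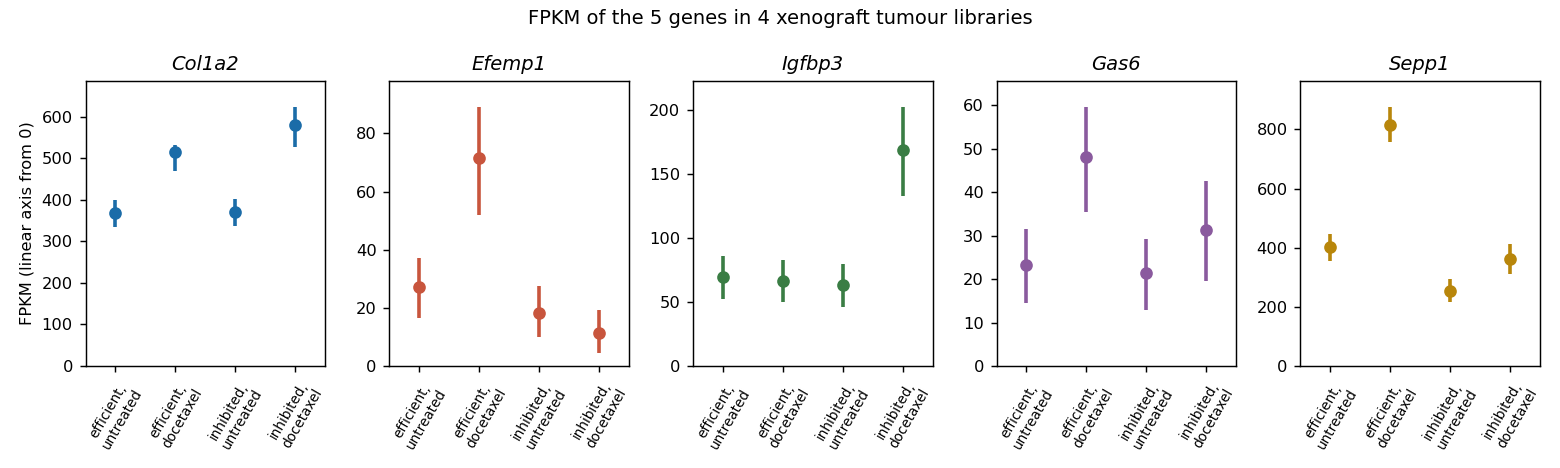
FPKM (vertical axis, linear from 0, scaled per panel) of each gene in the 4 libraries (horizontal axis). Points are the deposited values and lines the deposited intervals. Efemp1 peaks at 71.6 and Sepp1 at 816 in the docetaxel efficient library, whereas Igfbp3 peaks at 168 in the docetaxel inhibited library.

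The first comparison asked how docetaxel-treated and untreated tumours differed when the grafted cells were caspase-3 efficient. Efemp1, Sepp1 and Gas6 were higher with docetaxel, by 2.64, 2.03 and 2.07 times in FPKM. The rule for higher or lower was that log2(FPKM + 1) differed by at least 1, the intervals did not overlap and the larger value was at least 5 FPKM. By this standard 3 of the 5 genes were higher and 0 lower, where 8.10% of 667 compared loci were higher and 0.900% lower. Among 192 loci at 10 FPKM or more in every library, a level that takes in all 5 genes and was chosen after their values were seen, 6.25% were higher. Intervals lay apart in 4 of the 5 genes and in 12.1% of the 667 loci. The Efemp1 difference on the log2(FPKM + 1) scale was 1.37 (approximate 95% interval 0.74 to 2.00, carried from the deposited bounds). The Sepp1 difference was 1.02 (0.83 to 1.21) and the Gas6 difference 1.02 (0.42 to 1.62), both close to the threshold.

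Col1a2 was 1.39 times as high with docetaxel, a difference of 0.48 (0.33 to 0.63) that did not pass the 2-fold threshold although the intervals lay apart. Igfbp3 differed by -0.06 (-0.54 to 0.42). The median difference was 1.02 over the 5 genes and 0.34 over the 667 loci, so most compared loci were higher in the docetaxel library. After each library was scaled to the median of 106 loci at 20 FPKM or more in all libraries, Efemp1 was at 1.04, Sepp1 at 0.69, Gas6 at 0.70, Col1a2 at 0.15 and Igfbp3 at -0.39. Only Efemp1 passed the rule on that scale, and with scaling to the 70 of these loci in densely detected regions Efemp1 was at 0.94 and none passed. Over all loci the same median scaling changed the calls from 54 higher and 6 lower to 36 and 15.

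Single markers of other cell types, Retn and alpha globin, were also highest in the docetaxel efficient library, where Efemp1, Sepp1 and Gas6 were highest. The 3 measured of 10 adipocyte markers summed to 429 FPKM there, nearly all of it Retn at 417, the mouse fat-cell hormone resistin, and to 11.6 to 12.6 in the other 3. The fat-cell lipid droplet gene Cidea was at 2.07 FPKM in untreated efficient, 9.76 in docetaxel efficient, 11.6 in untreated inhibited and 12.4 in docetaxel inhibited tumours, so it did not follow Retn. Adipoq, Fabp4 and Plin1 were listed at 0 in all 4. The 3 erythroid loci, all alpha globin, summed to 1766 FPKM there against 207 in untreated efficient, 935 in untreated inhibited and 427 in docetaxel inhibited tumours. The epithelial claudin gene Cldn4, the 1 measured of 8 epithelial markers, was at 5.71 FPKM there and listed at 0 elsewhere. The 2 measured of 10 endothelial markers summed to 0.734 to 3.30 FPKM over the libraries, and Cspg4, the 1 measured of 10 pericyte and smooth muscle markers, lay between 2.03 and 4.19. No skeletal muscle or keratinocyte marker was measured. The part of fat, blood or other cell types in the differences of the 5 genes was not tested.

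The second comparison set docetaxel against no treatment where the grafted cells had been caspase-3 inhibited. Igfbp3 was 2.67 times as high with docetaxel and was the 1 gene of the 5 past the rule, with a difference of 1.40 (0.93 to 1.88). Over 630 compared loci, 3.81% were higher and 1.75% lower, and among the 192 loci 4.17% were higher and 0.521% lower. Intervals lay apart in 3 of the 5 genes and in 8.73% of loci. Col1a2 differed by 0.64 (0.47 to 0.81) and Sepp1 by 0.51 (0.22 to 0.80). Their intervals lay apart without reaching 2-fold. Gas6 differed by 0.52 (-0.20 to 1.24) and Efemp1 by -0.64 (-1.69 to 0.42), both with overlapping intervals. The median over the 5 genes was 0.52 and that over all compared loci 0.37. With median scaling Igfbp3 was at 1.11, Col1a2 at 0.34, Gas6 at 0.23, Sepp1 at 0.21 and Efemp1 at -0.92. Quantile normalization left Igfbp3 at 0.95, under the threshold. The same median scaling over all loci changed 24 higher and 11 lower to 14 and 17.

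Inhibited and efficient tumours were next compared without docetaxel. None of the 5 genes passed the rule, where 2.51% of 597 loci were higher and 3.35% lower, and 2.60% and 1.04% of the 192. Intervals lay apart in 1 of the 5 and in 8.04% of loci. Sepp1 was 1.58 times lower in the inhibited library, a difference of -0.65 (-0.92 to -0.39) with intervals apart. Efemp1 differed by -0.55 (-1.37 to 0.28), Igfbp3 by -0.14 (-0.64 to 0.36), Gas6 by -0.11 (-0.82 to 0.60) and Col1a2 by 0.01 (-0.17 to 0.18). These intervals include differences of more than 1.5-fold in Efemp1, Igfbp3 and Gas6, while that of Col1a2 reaches 0.18 on the log2 scale. They carry the error of the deposited values only, so they set no limit on differences between tumour kinds. The median over the 5 genes was -0.14 and over all compared loci -0.09.

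Under docetaxel the inhibited and efficient libraries differed in opposite directions for different genes. Efemp1 was 6.28 times lower in the inhibited library (-2.55, interval -3.46 to -1.64) and Sepp1 2.25 times lower (-1.17, -1.39 to -0.94), while Igfbp3 was 2.53 times higher (1.33, 0.87 to 1.78). By the rule 1 of the 5 was higher and 2 were lower, against 3.99% higher and 9.27% lower of 701 loci, and 7.29% and 4.17% of the 192. Intervals lay apart in these 3 genes and in 15.4% of loci. Gas6 differed by -0.61 (-1.22 to 0.00) and Col1a2 by 0.17 (0.03 to 0.32), and the deposited intervals of both overlapped. Median scaling moved these values little, to -2.53 for Efemp1, -1.15 for Sepp1, 1.34 for Igfbp3, -0.60 for Gas6 and 0.18 for Col1a2. After quantile normalization, which sets values by rank alone, Sepp1 stood at -0.59, no longer past the rule, and Col1a2 at 0.59. The median was -0.61 over the 5 genes and -0.05 over all compared loci. Each library here also enters 1 of the docetaxel comparisons above, so its values are not separate observations.

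**Figure D2:**
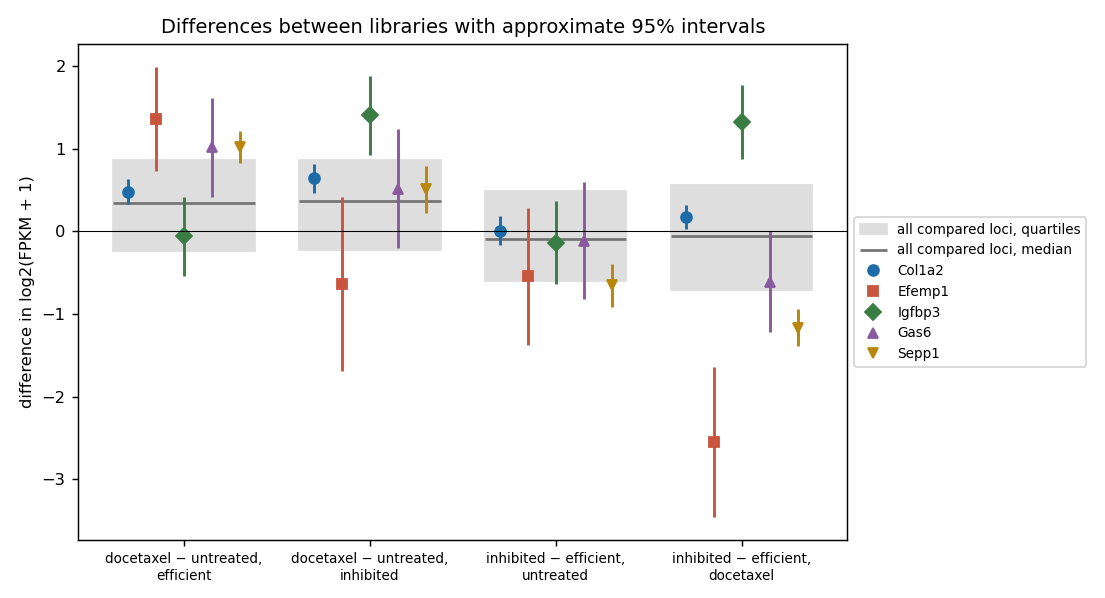
Differences in log2(FPKM + 1) (vertical axis) of each gene in the 4 comparisons (horizontal axis), with approximate 95% intervals carried from the deposited bounds. Grey boxes and lines give the quartiles and median of all compared loci. Efemp1 lies at 1.37 and -2.55 in the first and last comparison, and Igfbp3 at 1.40 and 1.33 in the second and last.

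The docetaxel difference in inhibited tumours was then set against that in efficient tumours, which rest on separate pairs of libraries. Efemp1 and Igfbp3 differed most between the tumour kinds. For Efemp1 the difference was 1.37 in efficient and -0.64 in inhibited tumours, a gap of -2.00 (-3.23 to -0.77). For Igfbp3 it was -0.06 and 1.40, a gap of 1.46 (0.79 to 2.14). These 2 of the 5 genes reached 1 on the log2 scale, as did 40.0% of 775 loci with 5 FPKM or more somewhere and 15.1% of the 192 loci. Of the 192, 2 lay below Efemp1 and 4 above Igfbp3. Sepp1 differed between tumour kinds by -0.51 (-0.86 to -0.17), Gas6 by -0.50 (-1.44 to 0.44) and Col1a2 by 0.16 (-0.07 to 0.39). Quantile normalization, which sets values by rank alone, turned the Sepp1 value to 0.23. These intervals cover the error of the deposited values only, so none is a test between tumour kinds.

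**Figure D3:**
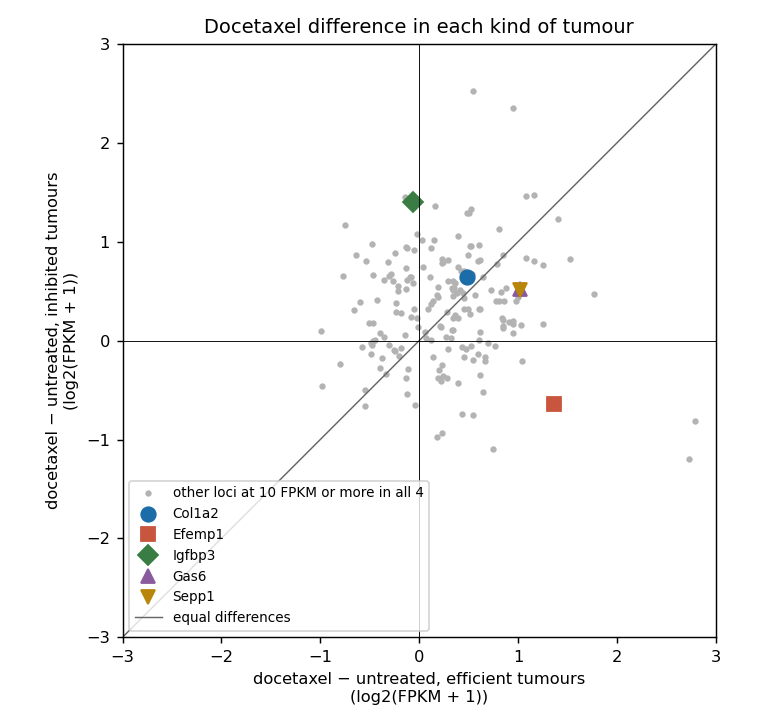
Docetaxel minus untreated difference in log2(FPKM + 1) in efficient tumours (horizontal axis) against that in inhibited tumours (vertical axis), for the 5 genes and the other loci at 10 FPKM or more in all 4 libraries (grey). The diagonal marks equal differences. Efemp1 lies at 1.37 and -0.64, Igfbp3 at -0.06 and 1.40, and Sepp1 and Gas6 almost coincide.

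Expressing each gene as a percentage of Col1a2 in the same library removes any factor that scales a whole library. Sepp1 was at 109% and 159% of Col1a2 in efficient tumours without and with docetaxel and at 68.6% and 62.6% in inhibited tumours. Sepp1 thus exceeded Col1a2 in both efficient libraries and lay below it in both inhibited ones. The pair's intervals overlapped in the untreated efficient library and lay apart in the other 3. Efemp1 was at 7.36% and 13.9% in efficient and 4.93% and 1.97% in inhibited tumours, a 7.07-fold span. Igfbp3 was at 18.8% and 12.9%, and at 17.0% and 29.0%. Gas6 stayed between 5.39% and 9.37%. On this ratio the docetaxel differences of Sepp1 and Gas6 in inhibited tumours became -0.13 and -0.10. Their sign changed on the ratio only. Under the 3 scalings tried, Sepp1 stayed at 0.18 to 0.23 and Gas6 at 0.04 to 0.23. Col1a2 itself was 1.56 times as high with docetaxel in inhibited tumours, and that difference enters the ratio. On the ratio Efemp1 kept a positive docetaxel difference in efficient tumours (0.92) and Igfbp3 in inhibited tumours (0.78), both under 2-fold.

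**Figure D4:**
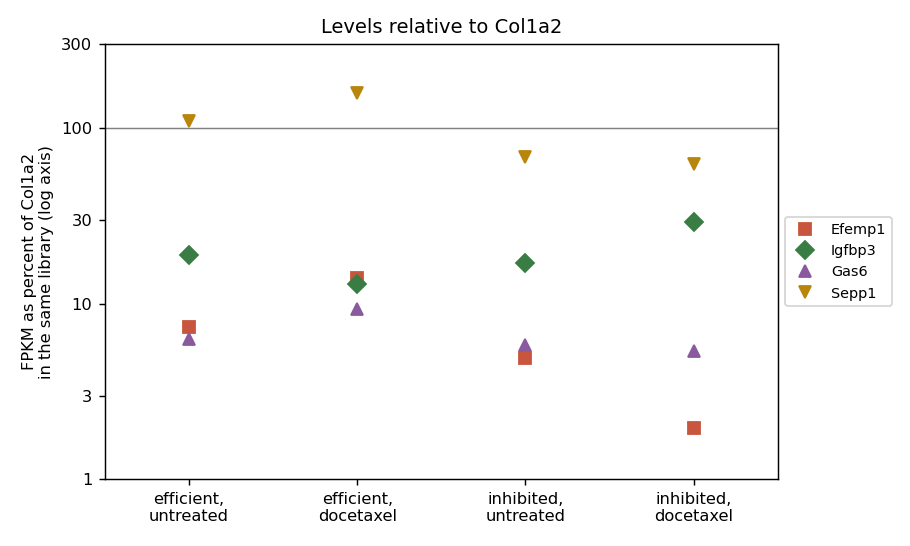
FPKM of Sepp1, Igfbp3, Gas6 and Efemp1 as a percentage of Col1a2 in the same library (vertical axis, log scale) in the 4 libraries (horizontal axis). The grey line marks 100%. Sepp1 lies at 109% and 159% in efficient tumours and at 68.6% and 62.6% in inhibited tumours.

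Among the 5 genes, Col1a2 and Sepp1 were the highest pair by FPKM in all 4 libraries, in an order that changed. Sepp1 lay above Col1a2 in the docetaxel efficient library, at 816 against 515 FPKM with intervals apart. It lay below Col1a2 in both inhibited libraries, at 255 against 371 untreated and 363 against 579 with docetaxel, again with intervals apart. In the untreated efficient library their intervals overlapped. Igfbp3 came next in 3 libraries. In the docetaxel efficient library Efemp1 and Igfbp3 lay at 71.6 and 66.5 FPKM with overlapping intervals. Efemp1 and Gas6 overlapped in both untreated libraries, and in the docetaxel inhibited library Efemp1 lay below Gas6 with intervals apart.

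Related genes were drawn from lists of collagens, elastic fibre proteins, growth factor signalling, Gas6 partners and selenoproteins. Of 40 collagen genes, 4 were measured. In each comparison 3 of them reached the 5 FPKM that the rule needs, and 0 met the rule. Besides Col1a2 the measured genes were Col28a1, at 4.11 FPKM or less, and the basement membrane chains Col4a1 and Col4a2. These chains lie next to each other on chromosome 8. Col4a1 was at 26.7, 31.5, 27.9 and 48.9 FPKM, in the order untreated efficient, docetaxel efficient, untreated inhibited and docetaxel inhibited, used here and below. Col4a2 was at 14.7, 21.4, 16.5 and 20.2. Both were thus highest in a docetaxel library, as was Col1a2. The Col4a2 intervals overlapped between all libraries. Those of Col4a1 lay apart with docetaxel in inhibited tumours and overlapped in efficient ones. The median docetaxel difference over all compared loci was also above 0, at 0.34 in efficient and 0.37 in inhibited tumours. Of 25 genes for collagen processing, 1 was measured, the lysyl oxidase relative Loxl3, at 0.581 to 3.04 FPKM.

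Of 19 fibulin and elastic fibre genes, 6 were measured, and Efemp1 was the 1 that passed the rule, higher with docetaxel in efficient tumours and lower in the inhibited docetaxel library. Its close relative Efemp2, encoding fibulin-4, which acts in elastic fibre assembly, was at 55.9, 55.1, 33.1 and 70.7 FPKM. Efemp2 was therefore highest in the library where Efemp1 was lowest, with its intervals overlapping between all compared libraries. Ltbp3, a binding protein for latent TGF-beta, was at 8.39, 11.4, 7.62 and 8.99. The median docetaxel difference was 0.41 in efficient and 0.21 in inhibited tumours over the 3 genes of the list that could be compared, Efemp1, Efemp2 and Ltbp3, and 0.19 and -0.37 over the 6 measured. Fbln1 and Fbln5 were listed at 0 in all 4 libraries.

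Of 20 genes of the insulin-like growth factor axis, 4 were measured. Ghr, the growth hormone receptor, which drives Igf1 production, was at 4.30, 60.3, 11.1 and 9.78 FPKM. It passed the rule as higher with docetaxel in efficient tumours and as lower in the inhibited docetaxel library, so its high library was not that of Igfbp3. Insr and Irs2, the insulin receptor and its substrate, stayed under 4 FPKM. Igf1 reached 0.587 FPKM at most, and Igf1r and Igfbp1, the neighbour of Igfbp3, were listed at 0 in all 4 libraries. Levels of the growth factor that Igfbp3 binds were thus not readable.

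The Gas6 receptors Axl, Mertk and Tyro3 were listed at 0 in all 4 libraries, in regions where at most 15.0% of the nearest loci were above 0. Of 14 genes on that list 3 were measured: Gas6, the signalling inhibitor gene Socs3 and Ggcx, the carboxylase that modifies vitamin K dependent proteins. Ggcx was at 8.13, 5.61, 9.95 and 13.3 FPKM and did not pass the rule. Among vitamin K dependent proteins, the coagulation factor gene F7 was at 13.2, 13.9, 5.40 and 7.22 and passed the rule in no comparison. F10, at 1.94 to 3.90, stayed under the 5 FPKM that the rule needs. Of 32 genes for selenoproteins and their synthesis, 27 were in the tables and 5 were measured. Only Sepp1 and Selm reached the 5 FPKM that the rule needs, and of these only Sepp1 passed it. Selm, a selenoprotein of the endoplasmic reticulum, was at 62.5, 57.3, 36.7 and 71.4 FPKM. Lrp8, a receptor for selenoprotein P, reached 0.691 FPKM in 1 library and was listed at 0 in the others.

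The genes most like each of the 5 were found by the root mean square distance between mean-centred log2(FPKM + 1) profiles over the 4 libraries, among loci at 20 FPKM or more in all of them. Gas6 lay closest to Mdh1, a malate dehydrogenase gene at 60.1, 121, 56.1 and 76.6 FPKM, at a distance of 0.028, against a median of 0.411 over 98 candidates. Sdcbp, encoding the adaptor syntenin, followed at 0.058. Col1a2 lay closest to Cct4, a chaperonin subunit gene (0.082), Dcun1d5 and Sf3b2. Sepp1 lay closest to the macrophage elastase gene Mmp12 (0.123; 87.8, 210, 55.2 and 94.8 FPKM), then Ndufa4 and Malat1. Igfbp3 lay closest to Rab1 (0.242), Col4a1 (0.272) and Xpo1.

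Efemp1 had no close match among the loci at 20 FPKM or more in all libraries. At 18.3 and 11.4 FPKM in inhibited tumours Efemp1 fell below that minimum itself, and loci that low were not searched. Tmem134 was nearest at 0.504, followed by Sepp1 at 0.530 and Cd248 at 0.568, against a median of 0.936 over 99 candidates. Cd248 encodes endosialin, a surface protein of stromal fibroblasts and pericytes, and was at 49.8, 59.2, 36.0 and 27.9 FPKM. Tmem134 was at 29.3, 46.9, 23.8 and 20.4 FPKM. Efemp1, Tmem134 and Cd248 were thus all highest in the docetaxel efficient and lowest in the docetaxel inhibited library. Tmem134 and Cd248 were picked for their likeness to Efemp1, so this shared order is no separate finding. Among the 5 genes, Gas6 and Sepp1 were the nearest pair (0.275) and Efemp1 and Igfbp3 the farthest (1.39). These distances rest on 4 libraries and describe them only.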

How the data were processed

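RNA of 4 tumours was sequenced from ribosomal RNA depleted total RNA, per the labels' protocols. TopHat and Cufflinks were run on the mouse build mm9, per the submitters' processing notes, with versions not given in these sources. The authors deposited FPKM with a lower and an upper bound and a status per locus, per the file headers, 1 table per library. Rows were joined by symbol and position, starts were raised by 1, and 285 loci per library with the status LOWDATA entered no comparison. Fragment counts are not in the columns used here, so only relative depth was estimated, from ratios of values under 10 FPKM. The FPKM exceeded its own upper bound in 2 to 9 loci per library.

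Differences were taken on log2(FPKM + 1), which understates those of low genes. Standard errors came by the delta method from the width of the deposited interval divided by 4, and gave the approximate 95% intervals. The rule and the intervals were tried on simulated Poisson counts, with bounds built from those counts. The scalings were tried on 1 library multiplied by known factors. These checks do not cover the asymmetry of the deposited bounds or libraries of unlike composition. No test was made, since each group was 1 library.

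The 5 genes, the gene lists and the rules were chosen with earlier results of these data known. Genes named were the 5, up to 4 others per list with the highest FPKM (without short RNAs, clone names, predicted genes or loci shorter than 500 bp), and the 3 most like each gene. Genes listed at 0 that pair with 1 of the 5 were added after their values were seen. Other settings tried were pseudocounts, minimum FPKM, 3 scalings, the interval criterion, the fold threshold and the ratio to Col1a2. No sequences are shown, since the reference used here is human. Python 3.11.15, numpy 2.4.6, pandas 2.3.3 and matplotlib 3.10.9 were used.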

Additional observations from a re-analysis of the deposited data

Results flagged for a closer look

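Efemp1 moved in opposite directions with docetaxel, by 1.37 on the log2 scale in efficient and by -0.64 in inhibited tumours, a gap of -2.00. The interval of the second value, -1.69 to 0.42, includes 0. Igfbp3 moved by -0.06 in efficient and 1.40 in inhibited tumours, a gap of 1.46. Its inhibited minus efficient difference was -0.14 without docetaxel and 1.33 with docetaxel. The gap of 1.46 between these is the same quantity by arithmetic, not a second observation. Both first values of Igfbp3 are close to 0, with intervals that include it. None of these differences between tumour kinds was tested, since each group was 1 library.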

How the results depend on the processing

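For docetaxel in efficient tumours 3 of the 5 genes passed the rule, 1 after median scaling, 1 after quantile normalization, 0 after median scaling in densely detected regions and 0 at a 3-fold threshold. With a pseudocount of 5 it was 2, since Gas6 stood at 0.91. For docetaxel in inhibited tumours 1 passed, 0 after quantile normalization, 0 at 3-fold and 2 at 1.5-fold, where Col1a2 joined Igfbp3. Without docetaxel 0 passed, and 1, Sepp1, at 1.5-fold. Between inhibited and efficient tumours under docetaxel 3 passed, 1, Efemp1, at 3-fold, and 2 after quantile normalization, where Sepp1 stood at -0.59. The difference of docetaxel differences was met by 2 genes, and by 1 at a threshold of 2. Of 141 values of single genes under other settings, 103 moved by less than 1 standard error, 38 by more, and 0 of those past the rule changed sign. Quantile normalization sets each value by its rank among loci above 0 in all libraries. Sepp1 and Col1a2 kept that rank with docetaxel in efficient tumours, so their differences became 0. Other quantile values of these 2 genes, among the highest listed, are likewise set by rank. The Efemp1 difference under docetaxel ranged from -2.82 to -2.22 and that of Igfbp3 from 1.17 to 1.47 over the settings. Over all loci the rule called 60, 35, 35 and 93 in the 4 comparisons, 187, 184, 142 and 240 without the interval criterion, 25, 13, 12 and 40 at a minimum of 20 FPKM, and 91, 46, 53 and 142 at 1 FPKM or none. No paired analysis was possible because each group was 1 library and the labels give no replicate numbers. Depth limits Efemp1 most, with bounds at a mean distance of up to 64.3% of its value.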
